A study of Homo sapiens with 6 samples.

Results

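The genes that remove and read N6-methyladenosine (m6A), a methyl mark on adenosines of messenger RNA, were followed in 92.1, an established human cell line derived from uveal melanoma, a cancer that starts in pigment-making cells inside the eye. The set was fixed by name and held 10 genes, namely the erasers FTO and ALKBH5, the YTH-domain readers YTHDF1, YTHDF2, YTHDF3, YTHDC1 and YTHDC2, and the readers IGF2BP1, IGF2BP2 and IGF2BP3. All 10 were measured, as 10 of 12010 genes and 31 of 30624 transcripts in the deposited files, and all 10 passed the filter of a mean of at least 0.5 FPKM. In the LBH589 group, 3 samples were exposed to 0.1 µM of the drug for 24 h. LBH589, also called panobinostat, blocks histone deacetylases, which take acetyl groups off histones and other proteins. In the DMSO group, 3 samples received only the solvent for 24 h. The comparison covers a single line at a single dose and time, and the labels do not say whether the 3 samples of a group were separate cultures, so p-values rest only on the spread of these particular samples, and that spread may be technical.

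Levels are given in FPKM, a fragment number corrected for transcript length and for the total mapped in the library, summed over a gene's listed transcripts. Summed FPKM lay between 355148 and 367222 in the LBH589 libraries and between 397174 and 422630 in the DMSO libraries. The 13 mitochondrially encoded genes held 35.1 to 37.3% of it in LBH589 and 35.8 to 45.7% in DMSO. All 7 melanocyte markers examined had values, and their summed level was 718 to 774 FPKM in LBH589 and 2530 to 2670 FPKM in DMSO. Of the 7, 6 were called lower, against 21.6% of all genes tested, and PMEL did not pass the test. Of 5 fibroblast markers only COL1A1 and LUM had listed transcripts, at 4.23 to 5.55 FPKM together in LBH589 and 1.47 to 2.52 FPKM in DMSO. Both were called higher, against 27.2% of all genes tested. COL1A2, DCN and PDGFRB, 4 leukocyte and 3 endothelial markers had no listed transcript. The part these markers play in the results was not tested. In RNA from whole cultures, fewer cells of a type and less RNA per cell cannot be told apart.

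m6A is written in the nucleus by a methyltransferase complex built on METTL3 and METTL14. FTO and ALKBH5 belong to the AlkB family of iron-dependent dioxygenases and can take the methyl group off again. YTH-domain proteins hold the methylated base in an aromatic pocket: YTHDC1 acts in the nucleus on splicing and export, YTHDC2 is a helicase best known from germ cells, and the cytoplasmic YTHDF proteins are tied to decay and translation of methylated mRNA. The IGF2BP proteins bind RNA through KH domains, favour methylated targets and keep them stable. IGF2BP1 and IGF2BP3 are called oncofetal because they are made in the embryo, are scarce in most adult tissues and return in many tumours, whereas IGF2BP2 stays on in adult tissues.

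All 3 IGF2BP genes fell with LBH589, YTHDC1 was slightly higher, and the other 6 genes did not pass the test. On log2(FPKM + 1) with limma, p-values adjusted over 11520 genes and called below 0.05, 3 of the 10 genes were called lower and 1 was called higher. Of all genes tested, 21.6% were called lower and 27.2% higher, so 4 calls in 10 genes stand against 48.8% overall. The median log2 fold change was 0.11 over the 10 genes and 0.08 over all genes tested. The values of the groups did not overlap for 4 of the 10 genes, against 59.5% of all genes tested: all LBH589 values lay below all DMSO values for the 3 IGF2BP genes, against 26.5% of all genes, and above them for 1, YTHDC1, against 33.0%. The genes were taken up with earlier results of these data known, so the counts describe them and are not evidence apart from those results.

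**Figure D1:**
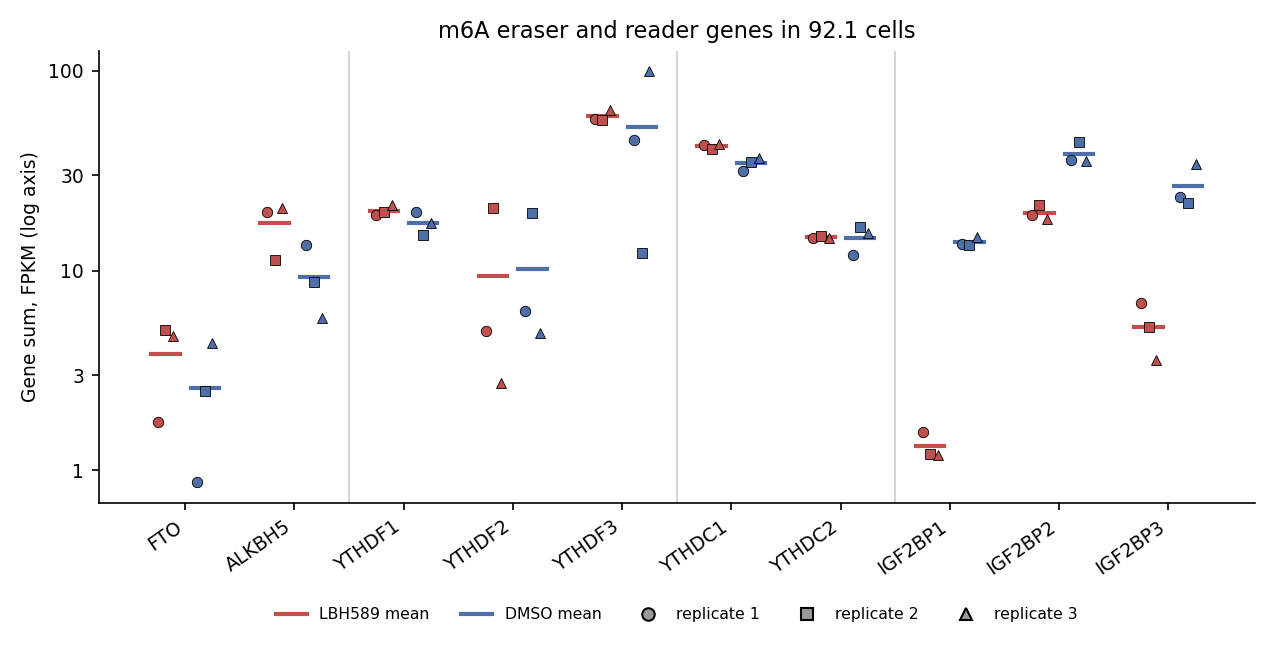
Summed FPKM of each gene (log axis) in the 3 LBH589 libraries (left of each pair) and the 3 DMSO libraries (right); points are libraries, shaped by replicate number, and bars are group means. IGF2BP1 sits between 1.20 and 1.56 FPKM in LBH589, below all DMSO values, while YTHDF2 and YTHDF3 scatter widely within a group.

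IGF2BP1, an mRNA stabiliser of embryonic tissues and tumours, had 1.56, 1.21 and 1.20 FPKM in LBH589 replicates 1 to 3, against 13.7, 13.5 and 14.7 FPKM in DMSO replicates 1 to 3. All 3 treated libraries lay far below all 3 controls, and both groups were tight, with highest-to-lowest ratios of 1.30 in LBH589 and 1.09 in DMSO. The means were 1.32 ± 0.207 FPKM in LBH589 and 13.96 ± 0.669 FPKM in DMSO (SD, n = 3 each; log2 fold change -2.69, SE 0.12, limma adjusted p = 3.71e-05), a ratio of 0.0948. IGF2BP1 lies on the plus strand at chr17:48997412-49055650 (GRCh38).

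IGF2BP3, the other oncofetal member of the family, had 6.89, 5.22 and 3.58 FPKM in LBH589, against 23.4, 21.8 and 34.2 FPKM in DMSO. The groups did not overlap, and the spread within each was wider than for IGF2BP1, with highest-to-lowest ratios of 1.93 in LBH589 and 1.57 in DMSO. The mean was 5.23 ± 1.66 FPKM in LBH589 and 26.5 ± 6.73 FPKM in DMSO (log2 fold change -2.15, SE 0.26, limma adjusted p = 0.00100). IGF2BP3 lies on the minus strand at chr7:23310209-23470467 (GRCh38).

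IGF2BP2, the family member that adult tissues keep, had 19.1, 21.4 and 18.1 FPKM in LBH589, against 35.6, 43.8 and 35.5 FPKM in DMSO. All treated values were below all controls, with a mean of 19.5 ± 1.68 FPKM in LBH589 and 38.3 ± 4.74 FPKM in DMSO (log2 fold change -0.94, SE 0.12, limma adjusted p = 0.00137). IGF2BP2 lies on the minus strand at chr3:185643739-185825056 (GRCh38). The 95% interval of its log2 fold change, -1.24 to -0.64, lay outside those of IGF2BP1 (-2.99 to -2.39) and IGF2BP3 (-2.78 to -1.52); the difference between the genes was not itself tested. The calls of all 3 genes remained under each of the 16 other settings, with log2 fold changes between -3.31 and -2.56 for IGF2BP1, between -2.34 and -1.84 for IGF2BP3 and between -1.06 and -0.76 for IGF2BP2.

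**Figure D2:**
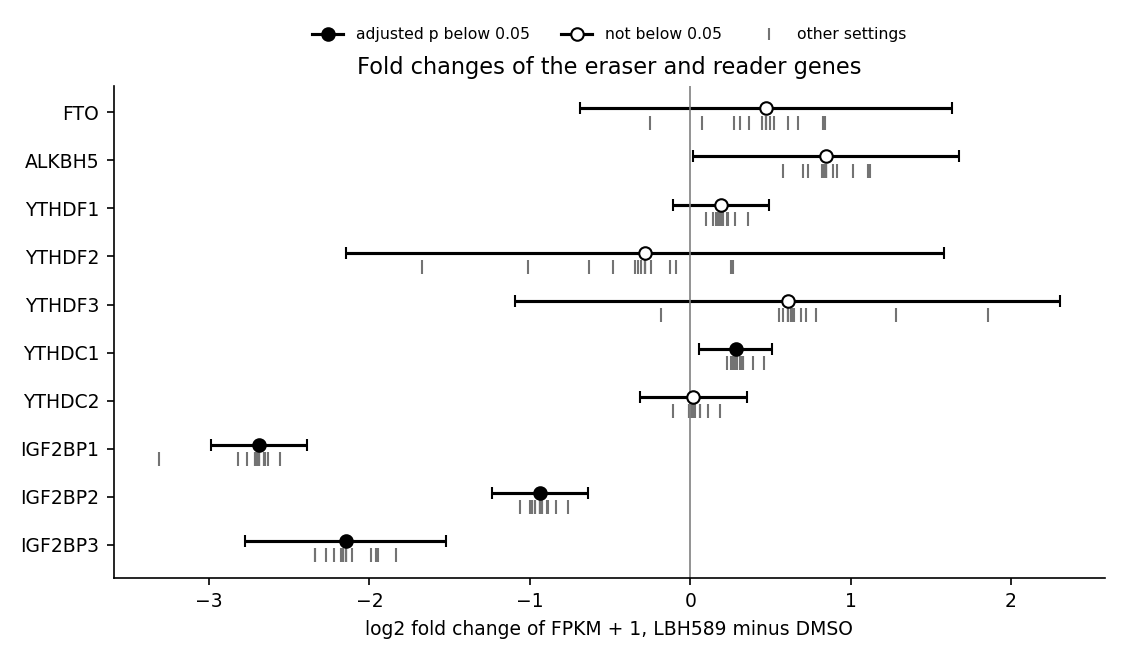
Log2 fold change of FPKM + 1, LBH589 minus DMSO, for the 10 genes; circles with bars are the estimates with 95% intervals (filled where adjusted p was below 0.05), and grey ticks below each are the same gene under the other settings. The 3 IGF2BP genes stay left of 0 in every setting shown, whereas the ticks of FTO, YTHDF2, YTHDF3 and YTHDC2 fall on both sides.

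Because the 3 genes fell by different amounts, the make-up of the family changed. The IGF2BP sum was 27.5, 27.8 and 22.9 FPKM in LBH589, against 72.7, 79.1 and 84.4 FPKM in DMSO. IGF2BP2 made up 69.3 to 79.1% of that sum in LBH589 and 42.1 to 55.4% in DMSO. IGF2BP1 made up 4.34 to 5.68% in LBH589 and 17.1 to 18.8% in DMSO. Among all 10 genes the IGF2BP share of FPKM was 13.6 ± 1.52% in LBH589 and 36.5 ± 5.25% in DMSO, with no overlap. FPKM is scaled per length, so these shares compare transcript numbers, not sequence, where fragments are assigned to the right transcript. That assignment was not tested, and the short IGF2BP3-218 ran from 0 to 23.8 FPKM between DMSO libraries.

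Sequence shared between relatives was measured as exact matches; read length and the mismatches allowed are not known, and assignment of fragments to the wrong relative was not tested. The longest exact stretch common to their most abundant transcripts was 22 bases for IGF2BP1 and IGF2BP2, 21 bases for IGF2BP1 and IGF2BP3 and 15 bases for IGF2BP2 and IGF2BP3. No stretch of 50 bases was shared by any listed transcripts of these genes, and none by those of the YTHDF genes, whose longest was 20 bases.

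The most abundant listed transcript of each IGF2BP gene holds at least 1 match to the seed of let-7, a feature that was not used to choose the genes. The let-7 microRNAs pair through bases 2 to 8 with sites in the part of an mRNA that follows its coding sequence, and IGF2BP1, LIN28B and HMGA2 are known targets of theirs. No microRNA was measured here, and the search was added after the fold changes were known. The mature let-7a sequence from RefSeq (GRCh38.p14) is printed with its seed in capitals, followed by each match to CTACCTC, on the sense strand only, in the most abundant listed transcript of each IGF2BP gene (GENCODE 29), with the match in capitals:
let-7a-5p: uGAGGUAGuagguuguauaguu
IGF2BP1-201 site 1: ctgtgtgcgaagtaaaCTACCTCa
IGF2BP1-201 site 2: ccagcagtgctagtaaCTACCTCa
IGF2BP1-201 site 3: agtataaatggattaaCTACCTCa
IGF2BP1-201 site 4: ttcacttttgttttatCTACCTCt
IGF2BP2-202 site 1: aaacacacagaagaagCTACCTCa
IGF2BP3-201 site 1: gtgcatttttactcaaCTACCTCa

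IGF2BP1-201 is 8274 bases long and carries 4 matches, all after the 1731 coding bases. IGF2BP2-202 (3688 bases) and IGF2BP3-201 (4250 bases) carry 1 each, also after the coding part, while the listed IGF2BP1-202 and IGF2BP2-203 carry 0. Among the other 7 genes only FTO had a match, 1 in the 11766 bases of FTO-206. A listed transcript with at least 1 match was found for 24.5% of the 12010 genes, and with at least 4 for 0.200%. Long transcripts held matches more often: of 2781 listed transcripts of 6000 bases or more, 42.1% had at least 1 and 0.791% at least 4. HMGA2 and LIN28B, looked up because they are known let-7 targets, each had up to 5 matches in a listed transcript. At least 5 matches were found for 6 of the 12010 genes. Both genes fell, but how many of the genes with matches fell was not counted. A part of let-7 in any of these falls was not tested. A match is a run of letters and not a measured site.

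**Figure D3:**
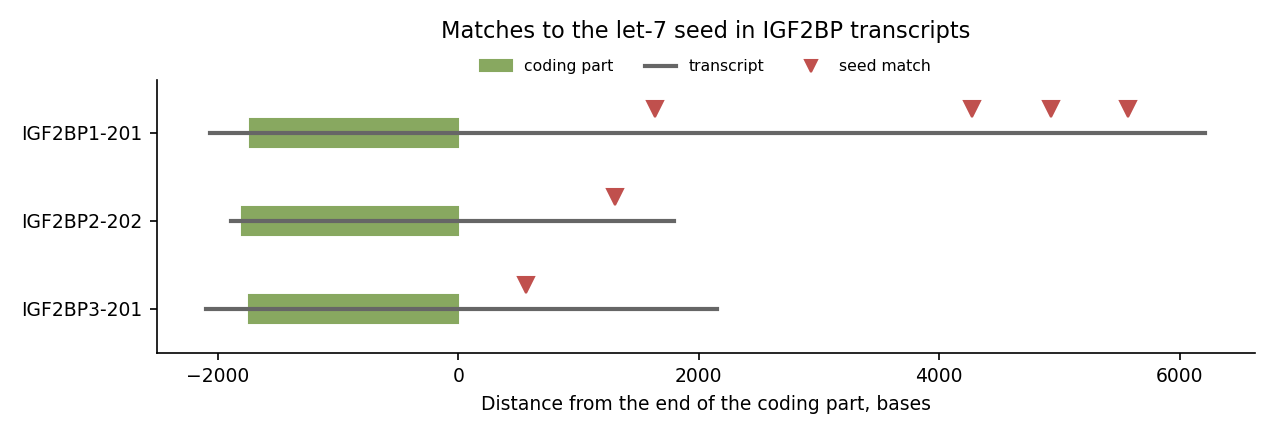
The most abundant listed transcripts of the IGF2BP genes drawn to scale from the end of the coding part (green box), with each match to the let-7 seed as a triangle. The 4 matches of IGF2BP1-201 lie 1635 to 5571 bases past the end of its coding part, while the other transcripts have 1 match each.

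The regions before the start sites of IGF2BP2 and IGF2BP3 are shown because both genes fell; the motif was chosen after the fold changes were known. Each line gives the 250 bases before the RefSeq start site (GRCh38.p14, minus strand, 5′ to 3′), with CACGTG in capitals, the hexamer bound by MITF, MYC and related helix-loop-helix factors, which reads the same on either strand:
IGF2BP3, chr7:23470492-23470741: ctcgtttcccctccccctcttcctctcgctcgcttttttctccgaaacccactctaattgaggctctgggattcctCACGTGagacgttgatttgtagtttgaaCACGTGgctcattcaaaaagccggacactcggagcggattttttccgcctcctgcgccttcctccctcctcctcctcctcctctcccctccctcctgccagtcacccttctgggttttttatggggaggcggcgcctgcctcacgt
IGF2BP2, chr3:185825043-185825292: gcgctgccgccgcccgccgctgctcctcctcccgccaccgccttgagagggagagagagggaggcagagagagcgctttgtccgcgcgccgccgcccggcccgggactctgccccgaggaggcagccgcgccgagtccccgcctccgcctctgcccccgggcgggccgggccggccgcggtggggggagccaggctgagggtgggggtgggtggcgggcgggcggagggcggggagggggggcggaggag

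IGF2BP3 has 2 copies of CACGTG, starting 174 and 146 bases before the start site, and IGF2BP2 has none. Of 35116 upstream regions of this length, 6.34% hold at least 1 copy and 0.535% at least 2. Among the 8 eraser and reader genes with a region, YTHDF1 alone also holds 1, although YTHDF1 did not pass the test. No region was searched for IGF2BP1 or YTHDF3, so nothing is known here of the motif before IGF2BP1. The E2F-type motif TTTCCCGC, read on both strands, was in none of the 8 and in 1.39% of all regions. IGF2BP2 is at 81.6% GC and IGF2BP3 at 56.8%, against a median of 58% over all regions. These letters say nothing of whether a factor was bound.

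YTHDC1, the nuclear YTH reader, was called higher by a small margin. It had 42.6, 40.4 and 43.1 FPKM in LBH589, against 31.6, 34.8 and 36.7 FPKM in DMSO. The lowest treated value lay above the highest control, and the means were 42.05 ± 1.46 FPKM in LBH589 and 34.4 ± 2.56 FPKM in DMSO (log2 fold change 0.28, SE 0.09, limma adjusted p = 0.0455). The direction was the same under the 16 other settings, but the call held in only 6 of them. It ended with equal medians (adjusted p = 0.105), without trend and robust moderation (0.0696), with the replicate number as a block (0.0992), with equal sums without mitochondrial genes (0.0721) and with the most abundant transcript (0.157). It also ended without any of LBH589 replicates 1, 2 or 3 (0.134, 0.0869 and 0.126) or DMSO replicates 1 or 2 (0.0618 and 0.0935). Equal library sums, under which the median over all genes tested was 0.23, gave YTHDC1 a log2 fold change of 0.46 (adjusted p = 0.00735).

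YTHDC2, the helicase reader, had 14.6, 15.0 and 14.5 FPKM in LBH589, against 12.0, 16.5 and 15.3 FPKM in DMSO. The treated values lay inside the range of the controls. Its log2 fold change was 0.02 with a 95% interval of -0.31 to 0.35 (limma adjusted p = 0.917). YTHDC2-201 carried most of the level, at 12.7 ± 0.344 FPKM in LBH589 and 12.7 ± 2.11 FPKM in DMSO. YTHDC2-206 averaged 0.814 FPKM in LBH589 and 1.36 FPKM in DMSO, and YTHDC2-207 averaged 1.17 FPKM in LBH589 and 0.508 FPKM in DMSO; neither passed.

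YTHDF1, the cytoplasmic reader tied to translation, had 18.9, 19.6 and 21.3 FPKM in LBH589, against 19.7, 15.1 and 17.3 FPKM in DMSO. The groups overlapped, and the log2 fold change of 0.19 had a 95% interval of -0.11 to 0.49 (limma adjusted p = 0.248). Nearly all of it was YTHDF1-202, at 94.99 to 97.7% of the gene sum in LBH589 and 95.8 to 98.5% in DMSO.

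YTHDF2, which brings methylated mRNA to the CCR4-NOT deadenylase, had 4.995, 20.5 and 2.74 FPKM in LBH589, against 6.25, 19.4 and 4.85 FPKM in DMSO. Replicate 2 stood high in both groups, 7.51 times the lowest library in LBH589 and 4.01 times in DMSO. The log2 fold change of -0.28 had a 95% interval of -2.15 to 1.58 (limma adjusted p = 0.791), so changes within that wide range were not detectable in these samples. The sign turned without LBH589 replicate 3 (0.25) or DMSO replicate 2 (0.27).

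YTHDF3, the YTHDF protein that works with both others, had the highest mean of the 10 genes in each group. It was at 57.5, 56.4 and 63.5 FPKM in LBH589, against 45.3, 12.2 and 99.4 FPKM in DMSO. The treated libraries were close together and lay inside the wide range of the controls, whose highest value was 8.16 times the lowest. The log2 fold change of 0.61 (95% interval -1.09 to 2.30, limma adjusted p = 0.510) turned to -0.18 without DMSO replicate 2 and was 1.28 without DMSO replicate 3.

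ALKBH5, a nuclear m6A demethylase, had 19.8, 11.4 and 20.6 FPKM in LBH589, against 13.4, 8.75 and 5.76 FPKM in DMSO. LBH589 replicate 2 lay below DMSO replicate 1, so the groups overlapped. The means were 17.2 ± 5.10 FPKM in LBH589 and 9.29 ± 3.83 FPKM in DMSO (log2 fold change 0.85, 95% interval 0.02 to 1.68, limma adjusted p = 0.0858). It passed without LBH589 replicate 2 (log2 fold change 1.11, adjusted p = 0.0492) or DMSO replicate 1 (1.12, adjusted p = 0.0378), and stayed positive under all 16 other settings.

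FTO, the other demethylase, which also acts on the methylated base next to the mRNA cap, was the lowest of the 10 genes in DMSO and next to the lowest in LBH589. It had 1.74, 5.03 and 4.69 FPKM in LBH589, against 0.873, 2.51 and 4.34 FPKM in DMSO. The groups overlapped (log2 fold change 0.47, 95% interval -0.68 to 1.63, limma adjusted p = 0.4504). The summed level of both erasers was 21.5, 16.4 and 25.3 FPKM in LBH589, against 14.2, 11.3 and 10.1 FPKM in DMSO, with no overlap. ALKBH5 supplied most of it in every library. The sum was not tested, and each eraser alone overlapped between the groups and did not pass. Of all single genes tested, 59.5% did not overlap.

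Ordered by mean level, the genes stood in different places in the groups. In LBH589 the order was YTHDF3, YTHDC1, YTHDF1, IGF2BP2, ALKBH5, YTHDC2, YTHDF2, IGF2BP3, FTO and IGF2BP1. The ranges of neighbours overlapped from YTHDF1 down to FTO, and they were apart between YTHDF3 and YTHDC1, YTHDC1 and YTHDF1, and FTO and IGF2BP1. In DMSO the order was YTHDF3, IGF2BP2, YTHDC1, IGF2BP3, YTHDF1, YTHDC2, IGF2BP1, YTHDF2, ALKBH5 and FTO, with gaps only between IGF2BP3 and YTHDF1 and between ALKBH5 and FTO. IGF2BP1 thus ranked 10 in LBH589 and 7 in DMSO, IGF2BP3 ranked 8 in LBH589 and 4 in DMSO, and IGF2BP2 ranked 4 in LBH589 and 2 in DMSO. ALKBH5, which did not pass the test, ranked 5 in LBH589 and 9 in DMSO.

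The 31 listed transcripts, all protein-coding, are part of 102 that GENCODE 29 annotates for these genes, and ALKBH5 alone has a single listed one. Of 28 that could be tested, 3 were called lower and 0 higher with limma, against 7.33% lower and 8.62% higher among 27042 transcripts. At an unadjusted p below 0.05 there were 2 further transcripts with higher values in LBH589, YTHDF3-211 and YTHDC1-205. With lower values there were 2, YTHDF3-205 and IGF2BP2-201. None of these passed after adjustment (limma adjusted p between 0.0644 and 0.146). The share of all transcripts at that cut was not counted, nor the share whose groups do not overlap. The 3 calls were IGF2BP1-201, IGF2BP2-202 and IGF2BP3-201, the most abundant transcript of each gene.

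IGF2BP1-201 (ENST00000290341.7_1, 15 exons) carried nearly the whole gene, with 1.56, 1.21 and 1.20 FPKM in LBH589, against 12.7, 13.5 and 13.98 FPKM in DMSO. Its call held under all 15 other transcript settings. The short IGF2BP1-202 was listed at 0 in every LBH589 library and at 0.990, 0 and 0.740 FPKM in DMSO, and is listed only through DMSO.

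IGF2BP2-202 (ENST00000382199.6_1) had 13.8, 7.76 and 11.9 FPKM in LBH589, against 29.5, 19.02 and 24.1 FPKM in DMSO, with no overlap (log2 fold change -1.06, limma adjusted p = 0.0490). IGF2BP2-204, which shares 98.1% of its 50-base stretches with other listed transcripts, did not follow it, with 3.72, 7.80 and 3.40 FPKM in LBH589 and 4.12, 0.241 and 6.27 FPKM in DMSO. IGF2BP2-201 had 1.49, 1.08 and 1.53 FPKM in LBH589, against 2.03, 10.3 and 5.13 FPKM in DMSO, and IGF2BP2-203 was listed at 0 in LBH589 replicate 1 and DMSO replicates 1 and 3. IGF2BP2-203 reached 14.3 FPKM in DMSO replicate 2, so the mix of forms varied between replicates of a group. IGF2BP3-201 (ENST00000258729.7_1) had 2.51, 5.22 and 3.58 FPKM in LBH589, against 16.5, 21.8 and 10.4 FPKM in DMSO (log2 fold change -1.84, limma adjusted p = 0.0212). The shorter IGF2BP3-218 was listed at 4.39, 0 and 0 FPKM in LBH589 and at 6.91, 0 and 23.8 FPKM in DMSO. With each library left out in turn the IGF2BP2-202 call held in 0 of 6 fits (adjusted p up to 0.119) and the IGF2BP3-201 call in 2 of 6, without LBH589 replicate 2 (0.0405) or DMSO replicate 3 (0.0243). Both gene sums held in all 6.

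In YTHDF2 and YTHDF3, single transcripts were high in some libraries and at or near 0 in others. YTHDF2-209 was listed at 19.9 FPKM in LBH589 replicate 2 and at 0 in the other 5 libraries, and YTHDF2-201 at 19.1 FPKM in DMSO replicate 2 and between 0.336 and 4.85 FPKM elsewhere. These transcripts share 93.3 and 93.8% of their 50-base stretches with other listed transcripts of the gene. YTHDF3-212 was at 0.219 FPKM in DMSO replicate 2 and between 42.7 and 53.7 FPKM in the other 5 libraries. YTHDF3-201, with 98.4% shared stretches, was at 45.5 FPKM in DMSO replicate 3, listed at 0 in DMSO replicate 1 and between 5.84 and 6.69 FPKM in the other 4. The minor YTHDF3-211 had 1.11, 1.49 and 1.32 FPKM in LBH589, against 0.332, 0 and 0.593 FPKM in DMSO, and YTHDF3-205 had 0.672, 0.756 and 0.817 FPKM in LBH589, against 1.79, 1.78 and 1.15 FPKM in DMSO. Neither pair of groups overlapped, and the directions were opposite. YTHDF2-201 and YTHDF3-213 also lay lower in LBH589 without overlap. None of these transcripts passed in the main fit. The share of all transcripts without overlap was not counted, and the 59.5% given above is for gene sums. YTHDF3-211 averaged 0.308 FPKM in DMSO and YTHDF3-213 averaged 0.392 FPKM in LBH589, so each is listed only through the other group and its direction was fixed by that. YTHDF3-211 (limma adjusted p = 0.0644 in the main fit) was called only with equal sums (log2 fold change 0.91, limma adjusted p = 0.0485).

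In FTO, FTO-214 or FTO-203 added to the sum in some libraries. FTO-206, the long form, was at 1.74, 1.13 and 1.23 FPKM in LBH589 and at 0.873, 2.47 and 2.36 FPKM in DMSO. FTO-214 was at 3.90 and 3.47 FPKM in LBH589 replicates 2 and 3 and at 0.00271 FPKM in LBH589 replicate 1, against 0.0320 FPKM in DMSO replicate 2 and 0 in DMSO replicates 1 and 3. FTO-214, listed only through its LBH589 values, did not pass in the main fit (limma adjusted p = 0.203). It was called higher only without LBH589 replicate 1 (log2 fold change 2.21, limma adjusted p = 0.0108). FTO-203 was listed at 1.99 FPKM in DMSO replicate 3 and at 0 in every other library. Of 186 values of the 31 transcripts, 28 are exactly 0, which in such files can be a failed estimate; whether the split between transcripts is real was not tested.

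YTHDC1 was spread over 5 transcripts. YTHDC1-207 led in every library, with 32.5, 24.4 and 24.05 FPKM in LBH589, against 16.5, 23.1 and 21.2 FPKM in DMSO. All treated values lay above all controls, by a narrow gap, and it did not pass (log2 fold change 0.39, limma adjusted p = 0.230). The short YTHDC1-205 had 3.63, 3.41 and 6.13 FPKM in LBH589, against 2.76, 1.55 and 1.24 FPKM in DMSO, also without overlap (limma adjusted p = 0.115). How many of all transcripts did not overlap was not counted. YTHDC1-201 and YTHDC1-202 overlapped between the groups, at 4.76 to 10.1 and 1.37 to 6.11 FPKM in LBH589 and 5.29 to 10.3 and 1.68 to 4.71 FPKM in DMSO.

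**Figure D4:**
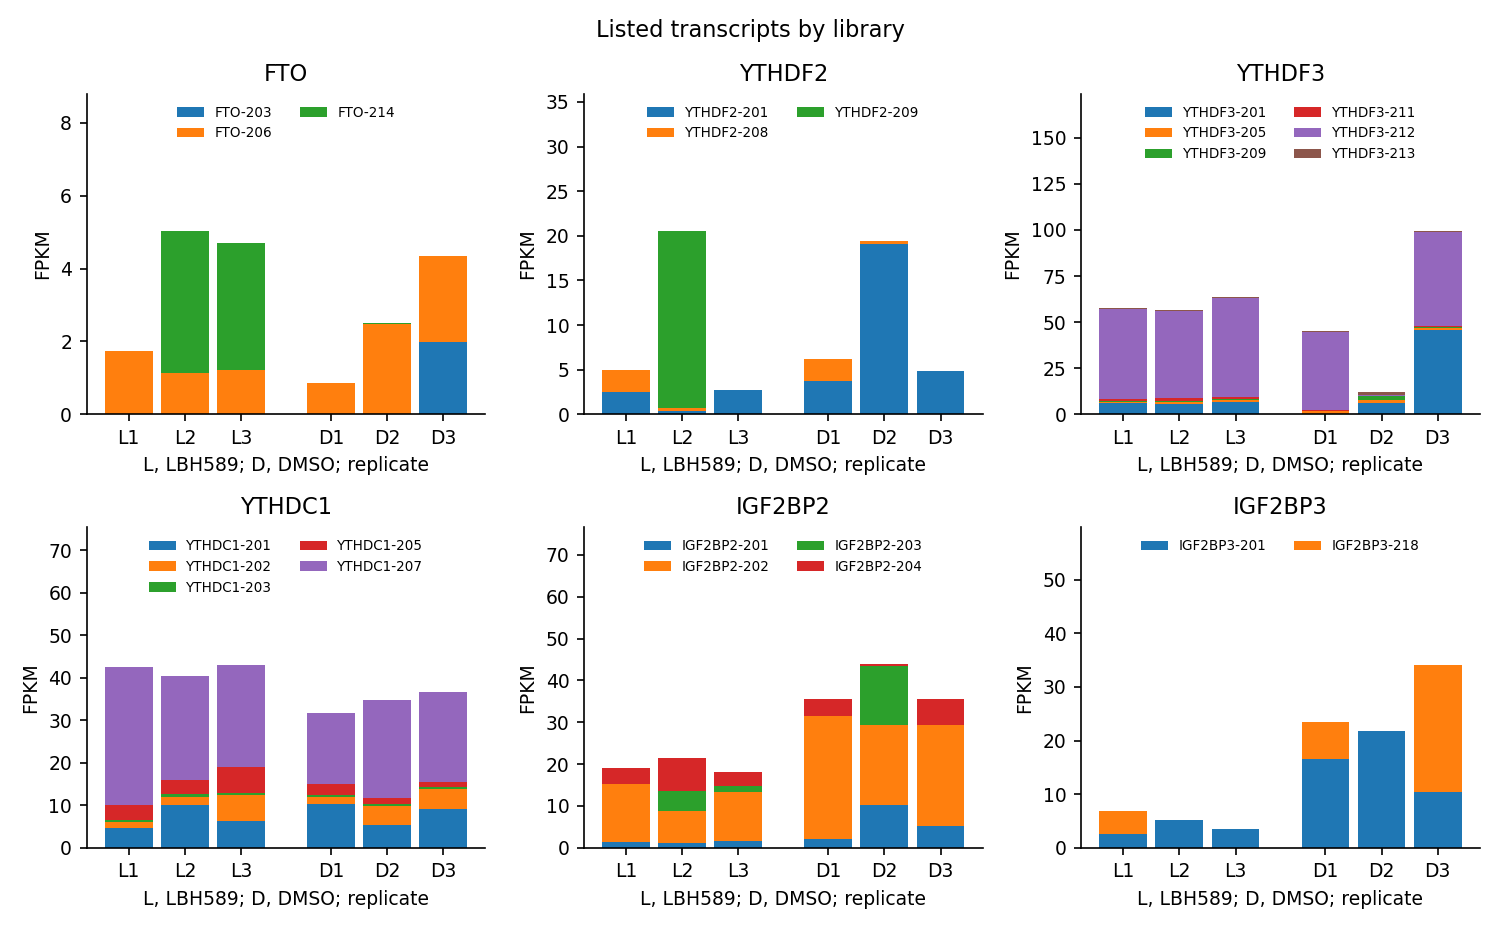
FPKM of each listed transcript, stacked to the gene sum, in the LBH589 libraries (L1 to L3) and the DMSO libraries (D1 to D3) for 6 of the genes. YTHDF2 and FTO draw on different transcripts from library to library, and YTHDF3-212 is at 0.219 FPKM in D2, while the fall of IGF2BP2 and IGF2BP3 shows in the total height.

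The writers of the mark moved in both directions. Of 9 tested, 4 were called lower and 1 higher, or 55.6% called against 48.8% of all genes tested, with a median log2 fold change of -0.31 against 0.08. ZC3H13, a scaffold of the writer complex, had a log2 fold change of -2.03 (105.6 ± 2.24 FPKM in LBH589 and 436 ± 35.6 FPKM in DMSO), and METTL16, which methylates the U6 small nuclear RNA, one of -1.08 (1.42 ± 0.246 FPKM in LBH589 and 4.11 ± 0.653 FPKM in DMSO). METTL3, the catalytic subunit, also fell (-1.08), as did RBM15, an adaptor named after its value was seen (-0.60). METTL14, the partner of METTL3, rose (1.15; 13.7 ± 0.828 FPKM in LBH589 and 5.65 ± 1.04 FPKM in DMSO). With equal library sums the counts were 3 lower and 3 higher, where 2001 of 11535 genes tested were called lower and 3749 higher. The RBM15 call ended there, with the replicate block and with the most abundant transcript. It also ended in 5 of 6 fits that left out a library, all but the one without DMSO replicate 3.

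Other proteins proposed to bind m6A, or RNA opened up by it, also split. Of 10 tested, 4 fell and 2 rose, or 60% called against 48.8% of all genes tested, with a median log2 fold change of -0.27. With equal sums 3 fell and 3 rose. HNRNPA2B1, a nuclear ribonucleoprotein, fell to 154 ± 10.3 FPKM in LBH589, against 468 ± 67.4 FPKM in DMSO, and RBMX fell to 11.8 ± 2.20 FPKM in LBH589, against 37.7 ± 10.6 FPKM in DMSO. ELAVL1, which binds AU-rich elements, had a log2 fold change of -0.56, and PRRC2A one of -0.61. FXR2, a relative of the fragile X protein, rose to 21.1 ± 1.92 FPKM in LBH589, against 9.40 ± 2.18 FPKM in DMSO. Both PRRC2A and LRPPRC, an RNA-binding protein of mitochondria, were named after their values were seen. The call of LRPPRC (log2 fold change 0.27, limma adjusted p = 0.0354) ended under 8 of 16 other settings, leaving out any library but DMSO replicate 1 among them, and that of PRRC2A ended under 4 of 16. These were equal sums (adjusted p = 0.0579), the replicate block (0.05396), the most abundant transcript (0.430) and leaving out LBH589 replicate 1 (log2 fold change -0.52).

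Around the YTH readers the calls went both ways as well. Of 6 tested partners of YTHDC1, YTHDC2 and YTHDF1, 4 fell and 2 rose, against 48.8% of all genes tested called in either direction. SRSF3 and SRSF10, splicing factors tied to YTHDC1, had log2 fold changes of -1.09 and -0.65, and the translation factor subunits EIF3A and EIF3B had -0.72 and -0.68. NXF1, the mRNA export receptor, rose to 50.2 ± 10.7 FPKM in LBH589, against 20.2 ± 0.995 FPKM in DMSO, and XRN1, the exonuclease that YTHDC2 binds, rose to 15.98 ± 0.831 FPKM in LBH589, against 7.42 ± 2.09 FPKM in DMSO. SRSF3 and EIF3B were named after their values were seen. The EIF3B call ended with equal sums (adjusted p = 0.0589), without LBH589 replicate 2 (0.0574) or 3 (0.0585), and with the most abundant transcript, where its log2 fold change was 0.18. The SRSF10 call also ended with the most abundant transcript (-0.22). Of 12 genes of the decay machinery that YTHDF2 recruits, 1 rose, the deadenylase CNOT7 (log2 fold change 1.02), and 1 fell, the subunit CNOT9 (-0.87), while 10 did not pass. That is 16.7% called, below the 48.8% of all genes tested. The CNOT7 call ended without LBH589 replicate 1 (adjusted p = 0.0571), LBH589 replicate 3 (0.0593) or DMSO replicate 3 (0.0522). It also ended with the replicate block, and the CNOT9 call ended with the most abundant transcript (limma adjusted p = 0.0794). With equal sums 3 of the 12 were called higher, against 3749 of 11535 genes tested there. Of 7 other AlkB genes, ALKBH1 alone was called, or 14.3% against 48.8% of all genes tested, and 6 did not pass. ALKBH1 had a log2 fold change of 0.99 (6.16 ± 1.43 FPKM in LBH589 and 2.64 ± 0.882 FPKM in DMSO). Its call ended with the replicate block (limma adjusted p = 0.0609) and without LBH589 replicate 2 (0.0647) or 3 (0.0663).

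Genes of the oncofetal programme and mRNAs known to be bound by IGF2BP proteins moved in both directions. Of 12 tested, 3 fell and 4 rose, or 58.3% called against 48.8% of all genes tested. The 4 include IGF2, which is listed only through its LBH589 values. Their median log2 fold change was -0.03, against 0.08 over all genes tested, and with equal sums it was 0.15, against 0.23. HMGA2, a chromatin protein of embryonic tissues, fell to 2.498 ± 0.297 FPKM in LBH589, against 31.5 ± 6.02 FPKM in DMSO (log2 fold change -3.20, limma adjusted p = 4.76e-05). LIN28B, which blocks the maturation of let-7, fell to 0.541 ± 0.0796 FPKM in LBH589, against 3.72 ± 0.402 FPKM in DMSO (log2 fold change -1.61). CD44, a hyaluronan receptor whose mRNA IGF2BP proteins bind, fell to 16.4 ± 2.07 FPKM in LBH589, against 121.7 ± 12.2 FPKM in DMSO.

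In the other direction, IGF2, the growth factor that gave the family its name, rose to 2.67 ± 0.709 FPKM in LBH589, against 0.148 ± 0.0893 FPKM in DMSO. CTNNB1, which encodes beta-catenin and was named after its value was seen, also rose (log2 fold change 0.57). The CTNNB1 call ended in 4 of 6 fits that left out a library, those without LBH589 replicates 2 or 3 or DMSO replicates 2 or 3. It also ended with the replicate block and with the most abundant transcript. MYC, whose mRNA IGF2BP1 shields from decay, had 1.86, 2.84 and 14.8 FPKM in LBH589, against 184, 3.47 and 143 FPKM in DMSO, and did not pass (limma adjusted p = 0.141). DMSO replicate 2 lay within the range of the treated libraries. LIN28A and H19 had no listed transcript. What these changes owe to the IGF2BP level was not tested.

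**Figure D5:**
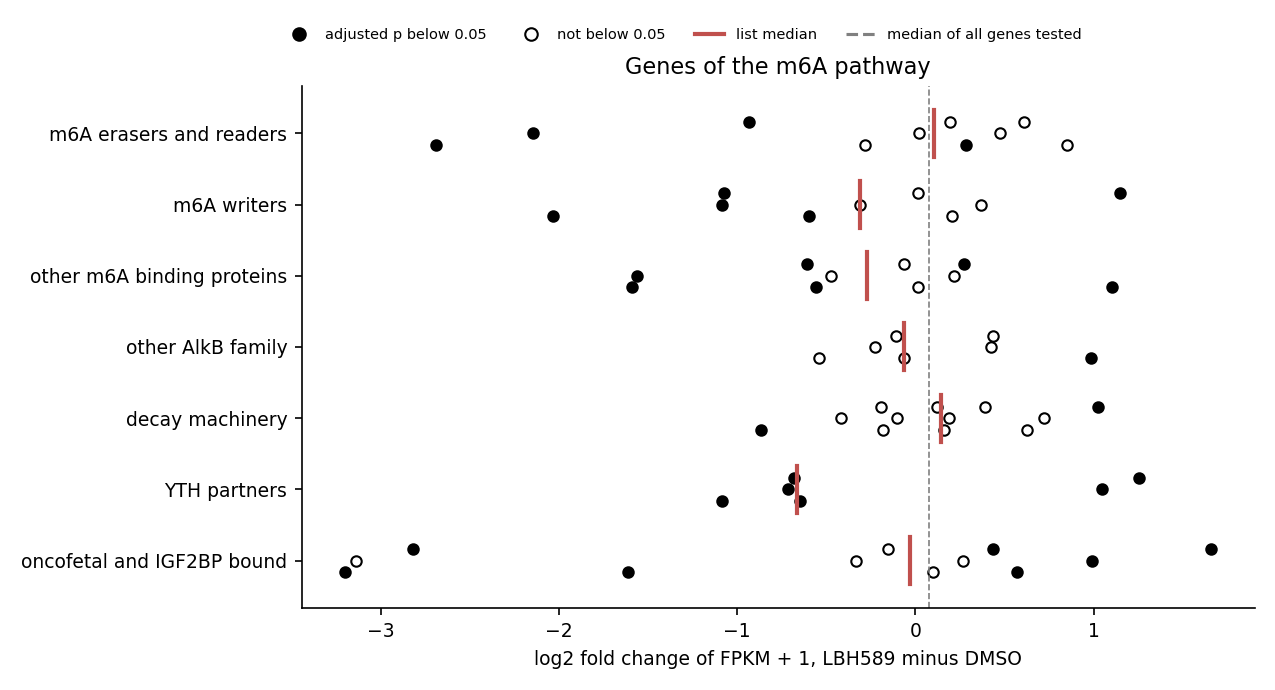
Log2 fold change of FPKM + 1, LBH589 minus DMSO, for each tested gene of the 10 erasers and readers and of 6 pathway lists (filled, adjusted p below 0.05); red bars are list medians and the dashed line is the median of all genes tested, 0.08. Each of the lists plotted holds genes on either side of 0, and among them the median lies furthest below 0 for the YTH partners, at -0.66.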

How the data were processed

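RNA sequencing of 6 samples was used, 3 treated with LBH589 and 3 with DMSO. The authors deposited FPKM values per transcript, and the submitters' processing notes name Bowtie 0.12.2 and the hg19 build. Of the quantification tool, annotation release and strand handling, none is given in the sources used here. Read depth is unknown, so no counting intervals were computed. Every listed transcript has a group mean of at least 0.500 FPKM, so transcripts at low level in both groups are not covered. A transcript below that level in 1 group is listed only through the other group, so its direction was fixed by the listing.

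Transcript names were taken from GENCODE 29 (GRCh38), which matched 99.6% of IDs, and coordinates are of that build. FPKM was summed per gene, log2(FPKM + 1) was fitted with limma 3.58.1 (R 4.3.3; trend and robust moderation, treatment only), and p-values were Benjamini-Hochberg adjusted over all 11520 genes whose mean over the 6 libraries reached 0.5 FPKM. Single transcripts were fitted in the same way. A fold change on this scale understates the change of low genes. All 10 genes were named, with up to 4 genes of smallest adjusted p per pathway list and, for each called gene, the 3 most like it. Some genes counted in the pathway lists are not reported here by name. The members and lists were chosen with earlier results of these data known. Alternatives were other pseudocounts, filters, scalings and moderation, a replicate block, leaving out each library and the most abundant transcript.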

Additional observations from a re-analysis of the deposited data

How the results depend on the processing

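The 3 lower calls among the eraser and reader genes held under all 16 other settings. The 1 higher call, YTHDC1, gave a count of 0 with equal medians, without trend and robust moderation, and with the replicate block. The count was also 0 with the most abundant transcript and with equal sums without mitochondrial genes (an alternative chosen after seeing the data). When a library was left out it was 0 to 1. The 1 was YTHDC1 without DMSO replicate 3 (limma adjusted p = 0.0415), and ALKBH5 without LBH589 replicate 2 or DMSO replicate 1. Transcripts called higher numbered 1 with equal sums and 0 to 1 without a library, and those called lower 1 to 2 without a library. All genes called higher fell to 1844 with a mean of at least 5 FPKM, against 3132, with fewer genes tested (6866); FTO could not be tested there. Among uncalled genes the sign turned for FTO with the most abundant transcript (-0.25) and for YTHDC2 with equal medians (-0.0086) and quantile normalization (-0.0048). Without a library the log2 fold change ran from -1.01 to 0.27 for YTHDF2, from -0.18 to 1.28 for YTHDF3 and from -0.11 to 0.11 for YTHDC2. The causes were not tested. Same-numbered libraries did not deviate together (correlations -0.10 to 0.02, and 0 of 6 libraries correlated best with their own number); with the replicate number as a block 2617 genes were called higher and 2172 lower, against 3132 and 2485. DESeq2 size factors were not run, since the files hold no counts. Unknown depth leaves the precision of low values, such as FTO and IGF2BP1 in LBH589, unstated.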

Other observations

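For each called gene the 3 genes most like it across the 6 libraries were listed by Pearson correlation of log2(FPKM + 1) among 7636 genes. The libraries fall into 2 treatment groups, so a high value mainly restates a shared difference between them and is a description. TDRD7, SPC25 and ADSS stood nearest to IGF2BP1, with log2 fold changes of -1.46, -2.94 and -1.26. BPNT1, RYR3 and MREG stood nearest to IGF2BP3, with log2 fold changes of -0.25, -1.27 and -0.78. AP2B1, SNRPE and CEP135 stood nearest to IGF2BP2, with -0.64, -0.98 and -1.43. FAM206A, TNKS2 and FNIP1 stood nearest to YTHDC1, with 0.46, 0.49 and 0.70. The lowest of the 12 correlations was 0.995, between YTHDC1 and FNIP1.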
